A study of Mus musculus with 12 samples.

Results

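H3K27 acetylation was examined at 10 genes of insulin signalling and glucose uptake in cultures of mouse adipose progenitors: Insr, Igf1r, Irs1, Irs2, Pik3r1, Pdpk1, Akt1, Akt2, Slc2a1 and Slc2a4. They were taken as a fixed list of 10 names out of 21631 protein-coding genes, and each was read over its GRCm38 span with 5 kb on each side. The cells were progenitors from the subcutaneous fat of Azin2-/- mice, which lack antizyme inhibitor 2, a regulator of polyamine synthesis, and of wild-type mice. Both genotypes were grown for 1 week with 4.5 g/l glucose and 10% serum. An adipogenic mix followed for 2 days, made of rosiglitazone (1 µM), dexamethasone (1 µM), IBMX (0.5 mM) and insulin (5 µg/ml), and then insulin at the same dose for 5 days. The treatment thus included insulin in both genotypes, and no arm without insulin was analysed here. There were 3 libraries per genotype, Azin2-/- replicates 1, 2, 8 and wild-type replicates 1, 2, 2b. The labels give neither the age of the mice, nor the nature of the allele, nor whether the replicates were different animals, nor what 2b is to wild-type replicate 2. If 2b repeats that sample, wild-type has 2 replicates, and with both averaged as 1 library no tested gene passed either. P-values here therefore measure only the spread between these libraries, which may be technical.

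As background, insulin binds the insulin receptor, whose kinase phosphorylates the IRS adaptors. These recruit phosphoinositide 3-kinase, the lipid it makes brings PDK1 and AKT to the membrane, and AKT signalling sends the transporter GLUT4 to the cell surface. In fat cells this chain drives glucose uptake and lipid storage, and the related IGF1 receptor feeds the same chain in their progenitors. H3K27ac marks active promoters and enhancers, but it measures neither RNA nor protein.

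The data were 6 lists of called peaks, of which the 30000 of smallest p per library were used, and cover means the length in bp that these peaks occupy. Cover is printed unscaled, whereas differences and overlap of the genotypes were judged after scaling each library to the same total cover. Over Azin2 itself, the targeted gene, it was 1176, 870 and 1492 bp in Azin2-/- replicates 1, 2 and 8 and 1434, 1150 and 2426 bp in wild-type replicates 1, 2 and 2b. Acetylation outside a deleted part can remain, so this does not check the labels. Those lists covered between 16.9 Mb in wild-type replicate 1 and 28.9 Mb in Azin2-/- replicate 1. The files hold no read totals, so depth is known only through the fragment pileup and local background that each peak's fold and p imply. In the 2000 strongest peaks the median implied background was 5.83 fragments in Azin2-/- replicate 8 and 0.203 to 1.68 in the other 5 libraries, so peaks of equal rank stand much less far above background in that library. Of 8 adipocyte marker loci, Plin1 and Cebpa had cover in all 6 libraries and Adipoq in none. Among 8 progenitor markers Pdgfra alone had cover in all 6, and among 4 neural markers Rbfox3 alone did. The summed scaled cover of 6 macrophage and leukocyte markers was 2112 to 3574 bp in Azin2-/- and 817 to 1272 bp in wild-type, and that of 5 skeletal muscle markers was 5539 to 6453 and 877 to 4593 bp. Neither range overlapped between genotypes, but no marker of these panels had cover in all 6 libraries. Among single gene loci, 6.72% did not overlap and were higher in Azin2-/-, and no such share was computed for panels. The other 5 panels overlapped, with adipocyte markers at 6074 to 7079 bp in Azin2-/- and 4416 to 6527 bp in wild-type, and progenitor markers at 2989 to 5717 and 5026 to 12189 bp. The 4 neural markers had 4337 to 9068 bp in Azin2-/- and 5008 to 11281 bp in wild-type, so panel cover is no measure of cell type here. The part of these levels in the results below was not tested. In cultures of mixed cells, fewer cells of a type and less of the mark per cell cannot be told apart.

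The most reproducible feature of the 10 loci was the acetylated region at a gene start. Start sites came from the RefSeq promoter table on GRCm38.p6, which held 14 starts for 8 of the 10 genes. Insr and Slc2a4 were read at their gene ends. A peak within 1 kb of at least 1 start was present in all 6 libraries at 5 genes, Igf1r, Irs2, Pik3r1, Pdpk1 and Akt2, and in 5 of 6 at Irs1, Akt1 and Slc2a1. Across all 17274 protein-coding genes with an entry, 18.9% had a start held by all 6 libraries. Insr had a peak at its upper end, the one of higher coordinate, in 3 libraries, and at Slc2a4 no library had one at either end.

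Which of several annotated starts carried the mark went with the base composition of its sequence. In the 300 bases from 250 before to 50 after a start, the ratio of observed to expected CpG dinucleotides was 0.605 to 1.11 at 8 of the 14 starts, and each of these 8 had a peak within 1 kb in 5 or 6 libraries. The other 6 starts had ratios of 0 to 0.438. Of those, 3 had a peak in no library, namely start 2 of Akt2, start 2 of Pik3r1 and start 1 of Pdpk1, while starts 3 and 4 of Akt2 had one in 2 and 1 libraries. Start 1 of Akt1, with a ratio of 0.391, had a peak within 1 kb in 5 libraries, yet it lies so close to start 2 that both share that peak. Over all 21045 starts of protein-coding genes the same split was seen, since a peak lay within 1 kb in 49.6 to 82.3% of the 10131 starts with a ratio of at least 0.6 and in 9.86 to 19.6% of the 10914 below it, depending on the library.

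**Figure D1:**
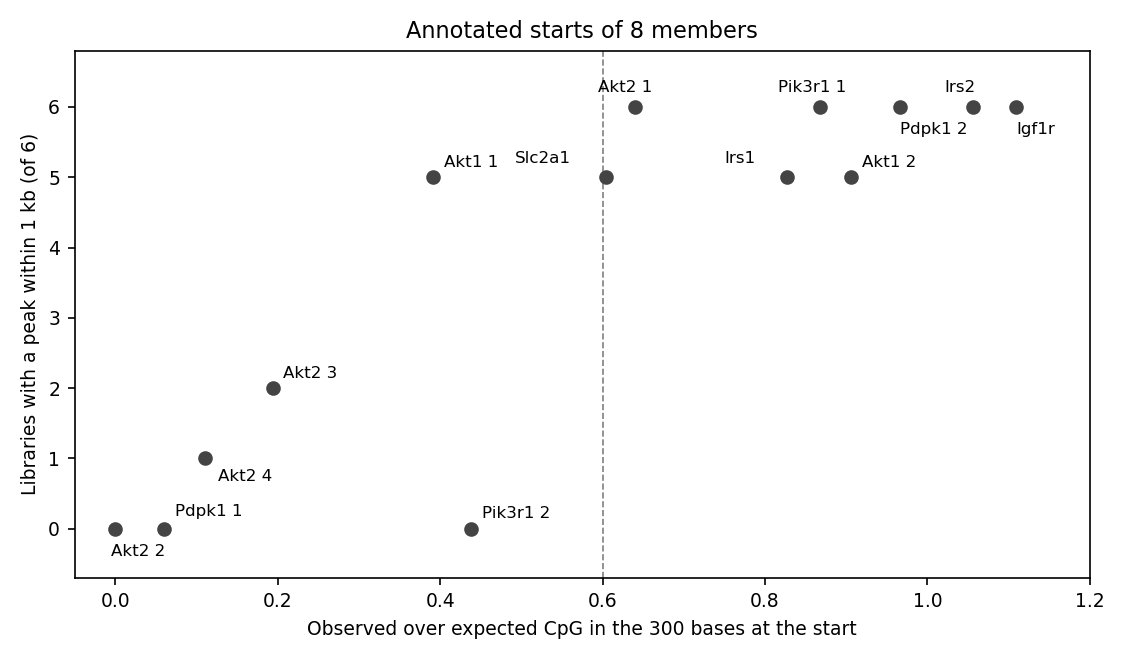
The 14 annotated starts of 8 genes by their observed over expected CpG ratio (horizontal axis) and the number of the 6 libraries with a peak within 1 kb (vertical axis). Each point is 1 start, numbered 5′ to 3′ where a gene has several, and the dashed line marks a ratio of 0.6. All 8 starts to the right of the line have 5 or 6 libraries, and of the 6 to the left only start 1 of Akt1 has more than 2.

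The contrast is shown with pairs of starts of 3 genes and with the single starts of Irs2, the adaptor with the longest start region, and of Slc2a1, whose ratio sits just above 0.6. Sequences are from RefSeq (GRCm38.p6), written 5′ to 3′ on the gene's strand, with every CG dinucleotide in capitals. The Akt1 pair spans chr12:112674835-112675134 (start 1) and chr12:112674227-112674526 (start 2), both on the minus strand, with 8 and 42 CG dinucleotides.
Akt1 start 1: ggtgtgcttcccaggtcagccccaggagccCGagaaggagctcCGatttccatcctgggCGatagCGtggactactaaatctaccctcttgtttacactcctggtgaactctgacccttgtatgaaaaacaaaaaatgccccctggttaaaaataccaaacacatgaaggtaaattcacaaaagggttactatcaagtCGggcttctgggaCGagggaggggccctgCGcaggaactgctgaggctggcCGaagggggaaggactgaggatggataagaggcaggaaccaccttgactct
Akt1 start 2: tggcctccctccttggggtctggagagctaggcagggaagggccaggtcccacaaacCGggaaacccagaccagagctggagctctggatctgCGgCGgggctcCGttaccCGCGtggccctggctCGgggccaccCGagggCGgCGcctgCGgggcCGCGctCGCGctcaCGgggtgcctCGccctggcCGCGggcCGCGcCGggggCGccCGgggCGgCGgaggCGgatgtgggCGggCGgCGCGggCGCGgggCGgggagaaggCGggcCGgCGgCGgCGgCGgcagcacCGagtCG

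The Pdpk1 pair spans chr17:24150873-24151172 (start 1, 1 CG dinucleotide, no peak in any library) and chr17:24141545-24141844 (start 2, 37 CG dinucleotides, a peak in all 6), on the minus strand.
Pdpk1 start 1: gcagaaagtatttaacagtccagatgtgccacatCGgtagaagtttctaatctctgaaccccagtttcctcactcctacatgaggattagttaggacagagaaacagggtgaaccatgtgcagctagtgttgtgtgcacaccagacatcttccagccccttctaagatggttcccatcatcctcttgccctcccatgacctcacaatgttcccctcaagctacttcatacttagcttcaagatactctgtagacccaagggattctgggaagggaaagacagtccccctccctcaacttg
Pdpk1 start 2: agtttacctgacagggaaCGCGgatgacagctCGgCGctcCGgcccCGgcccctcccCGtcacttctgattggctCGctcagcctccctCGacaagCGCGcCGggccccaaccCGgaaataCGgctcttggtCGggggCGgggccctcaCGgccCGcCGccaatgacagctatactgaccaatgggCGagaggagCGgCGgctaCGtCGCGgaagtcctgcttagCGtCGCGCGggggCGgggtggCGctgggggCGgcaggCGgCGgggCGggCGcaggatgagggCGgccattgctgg

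The Pik3r1 pair, also on the minus strand, reverses that order along the gene, with the CG-rich and acetylated start first. Start 1 spans chr13:101768168-101768467 with 34 CG dinucleotides and start 2 chr13:101692581-101692880 with 6.
Pik3r1 start 1: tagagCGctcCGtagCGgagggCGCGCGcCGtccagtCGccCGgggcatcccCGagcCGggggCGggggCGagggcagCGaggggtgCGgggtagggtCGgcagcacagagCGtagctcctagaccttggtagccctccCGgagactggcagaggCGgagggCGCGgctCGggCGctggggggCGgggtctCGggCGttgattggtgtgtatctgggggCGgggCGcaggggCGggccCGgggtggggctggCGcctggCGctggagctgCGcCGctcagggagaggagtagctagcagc
Pik3r1 start 2: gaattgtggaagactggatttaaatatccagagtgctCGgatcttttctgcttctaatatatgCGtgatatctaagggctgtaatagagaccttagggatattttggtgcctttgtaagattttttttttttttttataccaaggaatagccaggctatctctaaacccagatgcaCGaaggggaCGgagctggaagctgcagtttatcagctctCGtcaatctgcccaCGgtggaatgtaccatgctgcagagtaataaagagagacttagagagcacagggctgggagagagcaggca

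Irs2 (chr8:11008880-11009179, minus strand) has 41 CG dinucleotides and Slc2a1 (chr4:119108495-119108794, plus strand) has 18.
Irs2 start 1: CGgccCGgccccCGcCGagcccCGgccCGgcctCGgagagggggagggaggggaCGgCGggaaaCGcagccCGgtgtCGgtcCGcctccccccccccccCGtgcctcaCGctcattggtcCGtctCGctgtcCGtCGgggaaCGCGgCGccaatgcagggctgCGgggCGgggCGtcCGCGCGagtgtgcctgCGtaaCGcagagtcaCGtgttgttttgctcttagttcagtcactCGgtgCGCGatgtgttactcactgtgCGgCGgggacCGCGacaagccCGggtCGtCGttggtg
Slc2a1 start 1: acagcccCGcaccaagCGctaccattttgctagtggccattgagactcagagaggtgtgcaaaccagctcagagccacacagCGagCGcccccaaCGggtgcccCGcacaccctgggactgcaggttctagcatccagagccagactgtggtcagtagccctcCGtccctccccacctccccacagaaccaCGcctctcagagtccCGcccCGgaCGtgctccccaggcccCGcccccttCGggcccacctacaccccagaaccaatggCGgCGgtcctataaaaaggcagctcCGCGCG

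Short motifs were searched on both strands of these windows and may overlap one another. The GC box GGGCGG, bound by SP and KLF factors, occurred in all 8 starts with a CpG ratio of at least 0.6 and in none of the other 6, against 74.2% of all starts with such a ratio and 46.7% of all starts. The E-box CACGTG occurred at Irs1 and Irs2 alone (7.91% of all starts), and the forkhead motif TGTTTAC at start 1 of Akt1 alone (3.03%). CCAAT was found in 5 of 14 windows (38.5% of all starts), TATAAA in 2 (12.7%) and the cyclic AMP element TGACGTCA in none (2.26%). These are matches of letters, not measured binding sites.

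Of the 2 receptor genes, Insr was marked at a gene end in part of the libraries and Igf1r at its annotated start in all. Insr, which encodes the insulin receptor, spans 129 kb on chromosome 8 from 3150922 to 3279649. Its strongest peak lay at that upper end in Azin2-/- replicates 1, 2 and 8 and in wild-type replicate 2, for example from 3278859 to 3280011 in Azin2-/- replicate 1. In Azin2-/- replicate 8 this peak ranked 33083 and so fell just outside the 30000, while wild-type replicate 2b had it at rank 47115 and wild-type replicate 1 at rank 176735. Cover of the Insr locus was 1656, 2625 and 0 bp in Azin2-/- replicates 1, 2 and 8 and 1669, 881 and 382 bp in wild-type replicates 1, 2 and 2b. A region within the gene, from 3225507 to 3227355, was held by Azin2-/- replicate 2 and wild-type replicate 1. The genotypes overlapped, and both the highest and the lowest value were in Azin2-/-. The log2 difference of scaled cover, Azin2-/- minus wild-type, was -0.06 with SE 0.70 (limma adjusted p = 0.99), and its 95% interval ran from 0.330-fold to 2.81-fold.

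Igf1r, which encodes the IGF1 receptor, had the longest mean cover of the 10 genes and was the 1 tested locus whose genotypes did not overlap. The gene spans 281 kb on chromosome 7 from 67952257 to 68233668, and its start lay in a region from 67950147 to 67954037 held by all 6 libraries. Within that region cover was 3236, 3338 and 3098 bp in Azin2-/- replicates 1, 2 and 8 and 2839, 3554 and 3573 bp in wild-type replicates 1, 2 and 2b, so the genotypes overlapped at the start itself (log2 difference -0.17, limma adjusted p = 0.603). Over the whole locus it was 4678, 4602 and 4782 bp in Azin2-/- and 4788, 6555 and 7735 bp in wild-type. Every wild-type library thus exceeded every Azin2-/- library, by only 6 bp at the closest pair before scaling, and the log2 difference was -0.51 with SE 0.33 (limma adjusted p = 0.794). Such separation, at 1 of the 9 tested genes, was about as frequent as over all genes, against 11.6% of all 11670 loci, of which 6.72% were higher and 4.93% lower in Azin2-/-.

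Most of the difference in means at Igf1r lay outside the start region. There cover was 1442, 1264 and 1684 bp in Azin2-/- replicates 1, 2 and 8 and 1949, 3001 and 4162 bp in wild-type replicates 1, 2 and 2b, means of 1463 ± 211 and 3037 ± 1107 bp (SD, n = 3 each). This cover lay in 15 regions, of which 14 were held by a single library, 3 of them in Azin2-/- and 11 in wild-type. Over all 10 loci, regions held by a single library numbered 24 in Azin2-/- and 28 in wild-type. No intragenic region was held by more than 1 wild-type library. The remaining region, from 68225655 to 68227096 and about 274 kb downstream of the start, was held by Azin2-/- replicates 1 and 8.

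**Figure D2:**
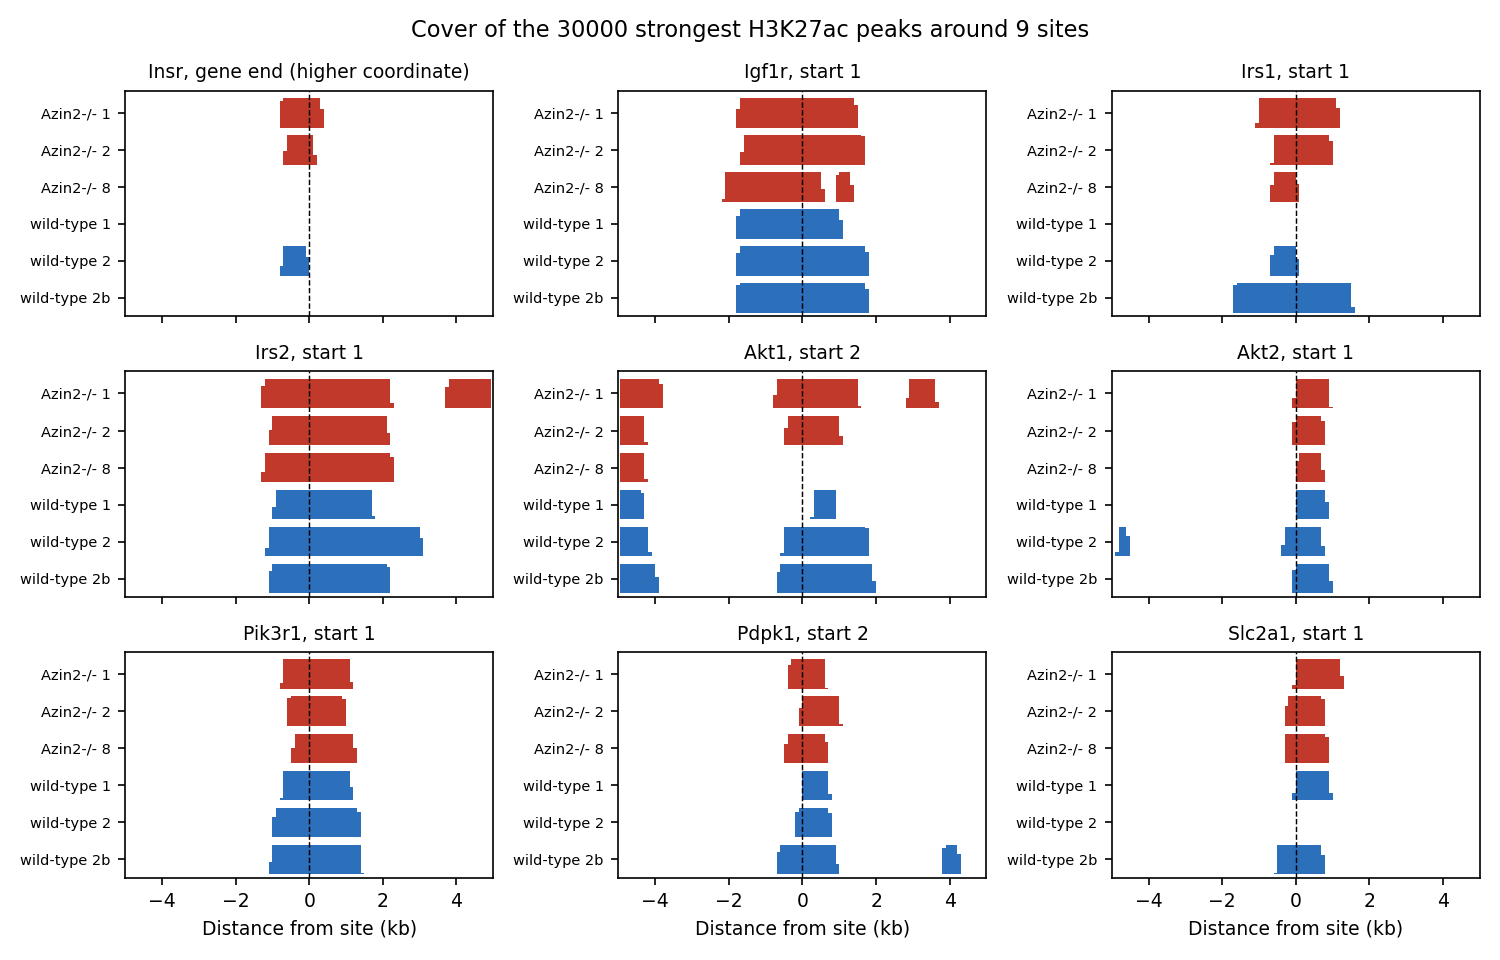
Cover of the 30000 strongest peaks per library from 5 kb before to 5 kb after 9 sites, drawn in the direction of transcription for the 8 genes with an annotated start and in genome coordinates for the Insr gene end. Each row is 1 library (red, Azin2-/-; blue, wild-type), the filled height is the covered share of each 100 bp, and the dashed line is the site. Igf1r, Irs2 and Pik3r1 show broad blocks in all 6 rows, whereas no peak lies within 1 kb of the site for Insr in 3 libraries and for Irs1, Akt1 and Slc2a1 in 1 library each.

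The adaptor genes Irs1 and Irs2 encode the docking proteins that carry the signal from the receptors to phosphoinositide 3-kinase. Irs2, on chromosome 8 from 10984681 to 11008929, was among the best marked of the 10 loci, with 1 broad region at its start that held 93.7% of the cover of its regions. The strongest peak there was 2653 to 4190 bp wide and lay over the start base in every library. Its summit was at -511 to -323 bp from the start, upstream of the window printed above. It ranked 59 of 30000 in Azin2-/- replicate 2 and 109 in wild-type replicate 2b, where the implied pileup was 79 fragments over a background of 2.57, and it ranked no lower than 3046 in any library. The only other region of the locus, from 11003837 to 11005202, was held by Azin2-/- replicate 1. An annotated noncoding gene of the other strand, 9530052E02Rik, starts inside the Irs2 start region, and peaks carry no strand.

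Irs2 cover was 4858, 3195 and 3519 bp in Azin2-/- replicates 1, 2 and 8 and 2653, 4190 and 3263 bp in wild-type replicates 1, 2 and 2b. The values interleave, and the log2 difference was 0.05 with SE 0.32 (limma adjusted p = 0.981), with a 95% interval from 0.631-fold to 1.69-fold. A change of 2-fold either way in this cover lies outside that interval. Cover is a length of called peaks, so the interval sets no limit on a change in the level of the mark.

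Irs1, on chromosome 1 from 82233105 to 82291439, was less even. Cover was 3121, 1584 and 2426 bp in Azin2-/- replicates 1, 2 and 8 and 327, 1054 and 3210 bp in wild-type replicates 1, 2 and 2b. Before scaling the lowest 2 values were wild-type and so was the highest, and the log2 difference of 0.69 with SE 0.46 did not pass (limma adjusted p = 0.794). It was 0.27 when wild-type replicate 1 was left out and 1.12 when 2b was. At the start, the region from 82289922 to 82293131 had 2181, 1584 and 714 bp in Azin2-/- and 0, 726 and 3210 bp in wild-type. In wild-type replicate 1 the best deposited peak within 1 kb of the start ranked 105752. A further region inside the gene, from 82282949 to 82284360 and 7079 to 8490 bp downstream of the start, was held by Azin2-/- replicates 1 and 8 and by no other library. In Azin2-/- replicate 8 it was the strongest peak of the locus, at rank 3618. Wild-type replicate 1 had its own strongest peak of the locus directly beside that region, from 82284368 to 82284694, at rank 4908. As the peaks did not overlap, it was counted as a separate region.

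Pik3r1 encodes the regulatory subunit of phosphoinositide 3-kinase and spans 87.5 kb on chromosome 13 from 101680761 to 101768217. Its first start lay in a region from 101766813 to 101769258 held by all 6 libraries. There Azin2-/- replicates 1, 2 and 8 had 1842, 1586 and 1702 bp and wild-type replicates 1, 2 and 2b had 1851, 2353 and 2446 bp. Every wild-type value was above every Azin2-/- value, although the closest pair differed by 9 bp, and the log2 difference was -0.46 (limma unadjusted p = 0.0349, adjusted p = 0.603 over 22205 regions). Of the 23 tested regions at the 10 loci, this was the 1 with an unadjusted p under 0.05, against 1.46% of all regions lower and 4.05% higher in Azin2-/-. In limma fits that left out 1 library that p was 0.0852 (Azin2-/- replicate 1), 0.0847 (wild-type replicate 1) and 0.105 (wild-type replicate 2), and on unscaled cover it was 0.164, so under these it no longer counted. The genotypes did not overlap at 2 of the 23, both lower, against 7.85% of all regions, with 2.62% lower and 5.22% higher.

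Within Pik3r1, 2 further regions recurred. One, from 101693936 to 101695775, lay upstream of the CG-poor start 2, at -3145 to -1306 bp from it, and was held by all 3 Azin2-/- libraries (818, 569 and 602 bp) and by wild-type replicates 1 and 2b (1760 and 1782 bp). It was the strongest peak of the locus in Azin2-/- replicates 2 and 8. The other, from 101759918 to 101761108, lay 7109 to 8299 bp downstream of start 1 and was held by 5 libraries, all but Azin2-/- replicate 8. Over the whole locus cover was 3557, 3684 and 3281 bp in Azin2-/- and 5617, 3129 and 4944 bp in wild-type. Before scaling, wild-type replicate 2 was below all 3 Azin2-/- libraries and the other two were above them, and the log2 difference was -0.43 with SE 0.37 (limma adjusted p = 0.84). It was -0.11 when wild-type replicate 1 was left out and -0.66 when wild-type replicate 2 was.

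Pdpk1 encodes the kinase PDK1, which phosphorylates AKT in its activation loop, and spans 81.9 kb on chromosome 17 from 24073680 to 24155619. All 6 libraries placed a compact peak 720 to 1609 bp wide at start 2, with summits 143 to 264 bp downstream of it. It was the strongest peak of the locus in every library but Azin2-/- replicate 8. A noncoding gene of the other strand, Gm33409, starts in the same region. Locus cover was 2820, 2557 and 2293 bp in Azin2-/- replicates 1, 2 and 8 and 2170, 1843 and 3072 bp in wild-type replicates 1, 2 and 2b. The values interleave, the log2 difference was -0.00 with SE 0.32 (limma adjusted p = 1.00), and the 95% interval ran from 0.617-fold to 1.62-fold.

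A second region shared by all libraries at the Pdpk1 locus, from 24072662 to 24073666, lies outside the gene and contains the start of its neighbour Kctd5. There cover was 620, 340 and 516 bp in Azin2-/- against 819, 878 and 1005 bp in wild-type libraries, so every wild-type value was higher. The log2 difference was -0.80 (limma adjusted p = 0.603), and this is the other of the 2 regions counted above. It holds 28.3% of the cover of the Pdpk1 locus, and over the Pdpk1 span alone the log2 difference was 0.32 (limma adjusted p = 0.884).

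The AKT kinases, which carry the signal to glucose uptake and growth, each had 1 recurrent start region. Akt1, on chromosome 12 from 112653821 to 112674884, had its start region from 112672336 to 112675022 in 5 libraries, with 2254 and 1491 bp in Azin2-/- replicates 1 and 2, 0 in replicate 8, and 605, 2308 and 2613 bp in wild-type replicates 1, 2 and 2b. The summits lay 399 to 636 bp downstream of start 2, on the side away from start 1. In Azin2-/- replicate 8 the only deposited peak within 1 kb of start 2 ranked 208309. A noncoding gene of the other strand, Gm30150, starts in the same region.

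Locus cover of Akt1 was 7584, 2626 and 1178 bp in Azin2-/- replicates 1, 2 and 8 and 1903, 3729 and 3889 bp in wild-type replicates 1, 2 and 2b. Azin2-/- held both extremes, and the log2 difference was -0.15 with SE 0.45 (limma adjusted p = 0.955). Without Azin2-/- replicate 8 it was 0.30. Of the summed length of the regions that touch this locus, counted whole, 48.9% lies outside the Akt1 span, since the region from 112678094 to 112682834, held by all 6 libraries, contains the start of Zbtb42 and lies upstream of Akt1, at -7950 to -3210 bp from start 1. In all 3 Azin2-/- libraries the strongest peak of the Akt1 locus was in that neighbouring region, and in all 3 wild-type libraries it was at Akt1 itself. In Azin2-/- replicate 1 the peaks were close, at rank 1041 for the neighbouring region and 1440 at start 2 of Akt1. These ranks were 2161 and 5547 in Azin2-/- replicate 2, and 626 and 208309 in replicate 8. Cover did not differ past the threshold in either region. The log2 difference was 0.07 in the neighbouring region (limma adjusted p = 0.952) and -1.07 in the Akt1 start region (limma adjusted p = 0.603). How often other loci split in this way was not counted, so the split is not read as a difference between genotypes.

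Akt2, the isoform most tied to insulin-stimulated glucose uptake, spans 49.3 kb on chromosome 7 from 27591552 to 27640826. At its first start all 6 libraries had a compact peak, 715 to 1072 bp wide with the summit 303 to 425 bp downstream of the start. It was the strongest peak of the locus in every library and ranked 152 in wild-type replicate 1 and 298 in wild-type replicate 2b. A second region, from 27622371 to 27624126 and 31.7 kb downstream of start 1, was held by all 3 Azin2-/- libraries (901, 476 and 883 bp) and by wild-type replicates 2 and 2b (702 and 1756 bp). Locus cover was 2674, 2978 and 1933 bp in Azin2-/- and 1071, 2056 and 4259 bp in wild-type, so wild-type held both extremes. The log2 difference was 0.07 with SE 0.36 (limma adjusted p = 0.974; 95% interval 0.602-fold to 1.83-fold).

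**Figure D3:**
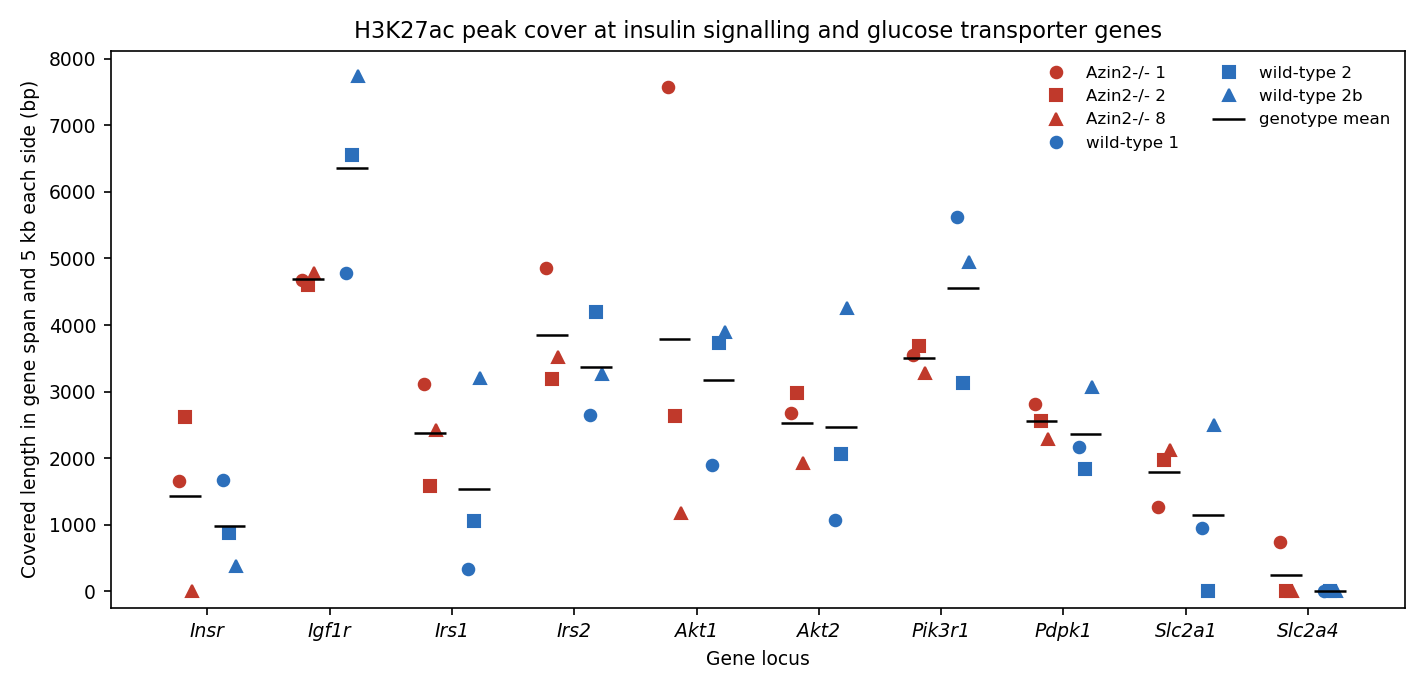
Length covered by the 30000 strongest peaks in each gene span and 5 kb on each side, in bp and unscaled, for 6 libraries (red, Azin2-/-; blue, wild-type; symbols, replicates; bars, genotype means). The genotypes separate at Igf1r alone, where the lowest wild-type value is 4788 bp and the highest Azin2-/- value 4782 bp, and Slc2a4 lies at 0 in 5 libraries.

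The 2 glucose transporter genes stood apart from each other. Slc2a1, which encodes the basal transporter GLUT1, spans 28.6 kb on chromosome 4 from 119108745 to 119137330 and had a peak at its start in 5 libraries. In the region from 119108240 to 119109989 cover was 1258, 1059 and 1187 bp in Azin2-/- replicates 1, 2 and 8 and 949, 0 and 1268 bp in wild-type replicates 1, 2 and 2b. The summits lay 132 to 364 bp downstream of the start. Wild-type replicate 2 also had a deposited peak there, from 119108774 to 119109974, but at rank 97073. The start peak of wild-type replicate 1 ranked 19489, with an implied pileup of 3 fragments, so at this depth a missing peak does not show a missing mark. A noncoding gene, Gm52706, starts within the region on the other strand.

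A further region, from 119126128 to 119127437 and 17383 to 18692 bp downstream of the start, was held by Azin2-/- replicate 8 and wild-type replicate 2b. Slc2a1 locus cover was 1258, 1977 and 2123 bp in Azin2-/- and 949, 0 and 2492 bp in wild-type. Before scaling the 2 lowest libraries were wild-type and so was the highest, and the log2 difference of 0.74 with SE 0.59 did not pass (limma adjusted p = 0.825). Its 95% interval was the second widest of the 9 tested genes after that of Insr, from 0.676-fold to 4.13-fold. Without wild-type replicate 2, the library with no cover, the log2 difference was 0.04.

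Slc2a4 encodes GLUT4, the transporter that insulin moves to the surface of mature fat and muscle cells. In these cultures, after adipogenic and insulin medium, its 5.93 kb span on chromosome 11 from 69942286 to 69948216 held none of the 30000 strongest peaks in any library. Azin2-/- replicate 1 had 745 bp in the flanks, from 2 peaks outside the gene of which the stronger, from 69939843 to 69940204, lies in the neighbour Ybx2. The other 5 libraries had 0 bp. Deposited peaks of any strength in the window numbered 2 to 9, and the best peak of the 3 wild-type libraries implied a pileup of 1, 3 and 1 fragments. In Azin2-/- replicate 2 the best peak lay inside the gene, from 69947516 to 69948042, with rank 38942 and an implied pileup of 4 fragments. The locus fell under the minimum mean cover of 500 bp, so it was not tested.

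Per length of locus, mean cover over the 6 libraries was highest at Akt1 and Irs2, with 112 and 105 bp per kb. It was 42.1 at Akt2, 41.4 at Pik3r1, 38.0 at Slc2a1, 28.6 at Irs1, 26.7 at Pdpk1, 18.95 at Igf1r, 8.67 at Insr and 7.79 at Slc2a4, against a median of 29.9 over all 11670 tested loci. The range over libraries of Irs2, 77.5 to 142 bp per kb, lay above those of the 8 genes from Akt2 downward, while that of Akt1, 37.9 to 244, overlapped Irs2 and 5 of the other 8. Apart from that gap, each gene overlapped its neighbour in this order. In long genes such as Igf1r and Insr a start region of fixed size weighs less per kb. The Akt1 value includes the part of the Zbtb42 region that lies in its flank, so its place in this order rests partly on a neighbour.

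None of the 9 tested genes passed between genotypes. In limma 0 of 9 had an adjusted p under 0.05, against 0% of the 11670 loci, and 0 of 9 had an unadjusted p under 0.05, against 4.34% of loci higher and 2.13% lower in Azin2-/-. The median log2 difference of the 9 was -0.00 and that of all loci 0.07. The 4 differences farthest from 0, -0.51 at Igf1r, -0.43 at Pik3r1, 0.69 at Irs1 and 0.74 at Slc2a1, lay within the central 95% of all loci, from -1.09 to 1.41.

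**Figure D4:**
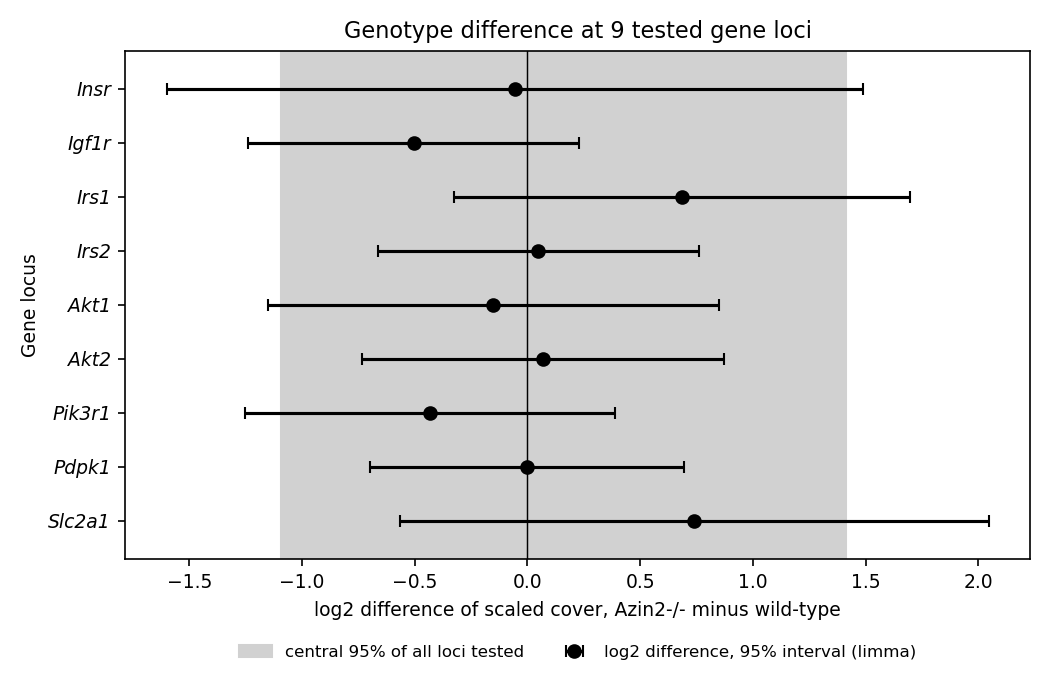
Log2 difference of scaled cover, Azin2-/- minus wild-type, for the 9 tested genes with 95% intervals from limma (points and bars). The grey band holds the central 95% of the 11670 tested loci, from -1.09 to 1.41. All 9 intervals include 0, and those of Insr and Slc2a1 are the widest.

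Cut into regions, the 10 loci held 70, of which 7 (10.0%) recurred in all 6 libraries and 52 (74.3%) were in a single library. Over all 128486 regions of the genome these shares were 3.23% and 85.8%. That set also holds regions far from genes, so the shares are not of like sets. Each of the 7 contained an annotated start, 5 of them of the gene itself and 2 of the neighbours Zbtb42 and Kctd5. None of the 70 was held by all libraries of 1 genotype and none of the other, a pattern that is rare in general, with 530 regions of this kind for Azin2-/- and 33 for wild-type among the 128486. The 52 solitary regions were spread over the libraries, with 10, 8 and 6 in Azin2-/- replicates 1, 2 and 8 and 13, 7 and 8 in wild-type replicates 1, 2 and 2b.

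A wider list of 64 further genes of insulin and IGF signalling and glucose uptake gave 53 tested loci, none of which passed in limma (lowest adjusted p = 0.743). At an unadjusted p under 0.05, 3 of 53 were higher and 1 was lower in Azin2-/-, and the genotypes did not overlap at 7 of 53, with 3 higher and 4 lower, against 4.34%, 2.13%, 6.72% and 4.93% of all loci for these 4 counts in turn. The median log2 difference was 0.05, with 27 loci positive and 26 negative. Of the 55 genes with an entry in the promoter table, 22 had a start held by all 6 libraries. Among all 17274 protein-coding genes with an entry this share was 18.9%, which is not matched for CpG ratio. Among the 22 were Foxo1, the forkhead factor that AKT inactivates, Socs3, a feedback inhibitor of the receptor, and Rictor and Rptor of the mTOR complexes. The other glucose transporter genes on the list ranged from none to full cover. Slc2a10 had cover in no library, Slc2a5 and Slc2a6 in 1, Slc2a2 in 2, Slc2a12 in 4, Slc2a3, Slc2a8 and Slc2a9 in 5 and Slc2a13 in 6. Among these Slc2a13, which encodes a myo-inositol transporter, was the 1 with a start held by all 6.

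By smallest unadjusted p, the 4 list genes of positive difference were Igf2, Pik3cd, Pik3r2 and Hk1. Igf2, which encodes the growth factor IGF2, a ligand of the receptor made by Igf1r, had 4915, 3317 and 2000 bp in Azin2-/- replicates 1, 2 and 8 and 0, 0 and 1444 bp in wild-type replicates 1, 2 and 2b. The genotypes did not overlap, and the log2 difference was 2.26 with SE 0.53 (limma unadjusted p = 0.0014, adjusted p = 0.743). It depended on the list, at 1.21 for Igf2 with 60000 peaks per library and 0.32 over all deposited peaks. Pik3cd, a catalytic subunit gene of phosphoinositide 3-kinase, had 2000, 1299 and 1717 bp against 0, 0 and 780 bp, a log2 difference of 1.67 (limma adjusted p = 0.743), which was 0.68 with 60000 peaks and 0.40 over all deposited peaks. For Pik3r2, the second regulatory subunit gene, the log2 difference of 1.56 rested largely on 8192 bp in Azin2-/- replicate 1, and without that library it was 0.93. For Hk1, a hexokinase gene, it was 0.70 (limma adjusted p = 0.792), the scaled values overlapped, and without wild-type replicate 2b it was 0.35.

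Those of negative difference were Grb14, Rps6kb1, Eif4ebp1 and Shc1. Grb14, an adaptor that inhibits the insulin receptor, had 1185, 942 and 873 bp in Azin2-/- replicates 1, 2 and 8 and 1379, 3447 and 4382 bp in wild-type replicates 1, 2 and 2b. There was no overlap, and the log2 difference was -1.24 with SE 0.36 (limma unadjusted p = 0.00531, adjusted p = 0.743). For Grb14 it was -0.20 among peaks with a q of 0.01 or less and -0.28 over all deposited peaks. Rps6kb1, the S6 kinase gene, and Eif4ebp1, a translational repressor gene, are both targets of mTOR, and after scaling each was lower in all 3 Azin2-/- libraries than in any wild-type library, with log2 differences of -0.71 and -0.75 (limma adjusted p = 0.782 for both). Without wild-type replicate 1 these were -0.44 for Rps6kb1 and -0.41 for Eif4ebp1. For Shc1, an adaptor gene, it was -0.57, with overlap. Because these 8 genes were named for small p-values within the list, their values are a description.

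**Figure D5:**
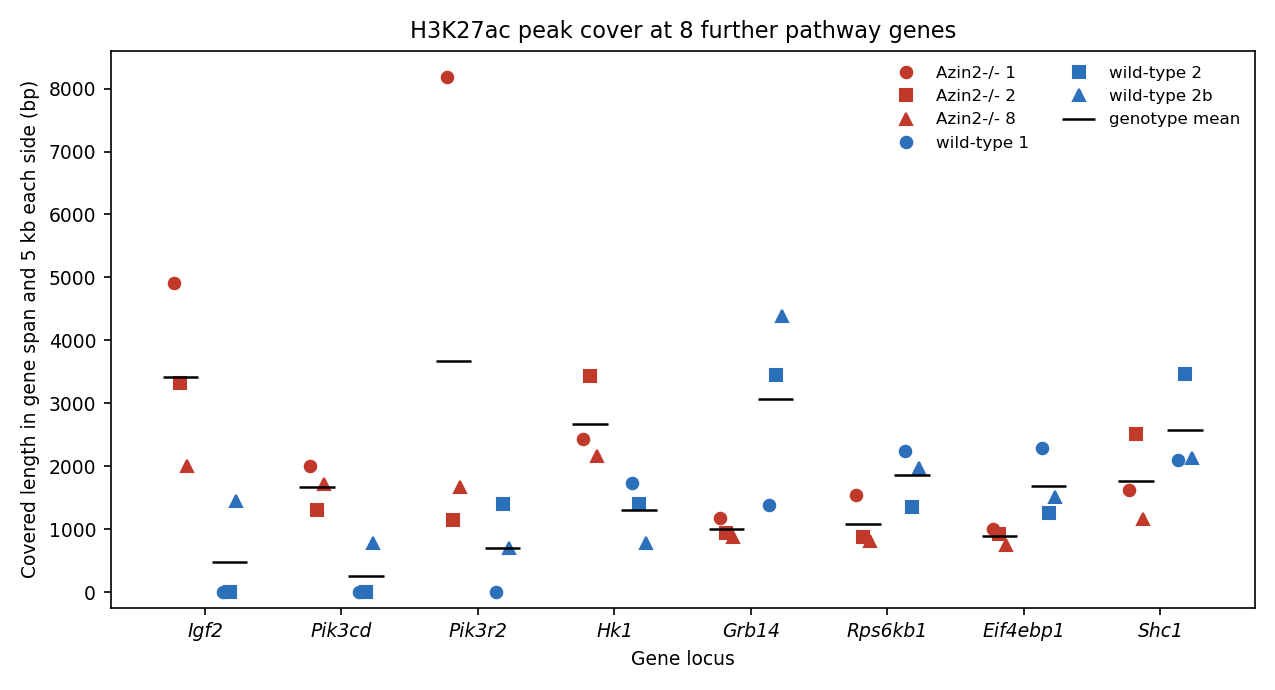
Length covered by the 30000 strongest peaks at 8 further pathway genes, in bp and unscaled, for 6 libraries (red, Azin2-/-; blue, wild-type; symbols, replicates; bars, genotype means). Igf2 and Pik3cd have no cover in wild-type replicates 1 and 2, and the single value of 8192 bp in Azin2-/- replicate 1 sets the mean of Pik3r2.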

How the data were processed

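H3K27ac ChIP-seq was profiled in 6 libraries of cultured mouse adipose progenitors, 3 Azin2-/- and 3 wild-type. The 6 input samples have no processed file here and were not analysed here. The authors deposited 1 list of called peaks per library on GRCm38 (mm10), per the submitters' processing notes. The aligner, peak caller and control library were not given in the sources used here. For each peak the deposited lists give a score, a fold ratio over local background, a -log10 p and a -log10 q. These are the authors' values and served only to rank and describe peaks within a list.

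The 30000 peaks of smallest p on chromosomes 1 to 19 and X were kept per library, since all lists include many weak peaks. Covered length was summed over each gene span and 5 kb of flank, scaled so that all libraries had the same total, 500 bp were added and log2 was taken, for loci with a mean of at least 500 bp. Differences are on this log2 scale, which understates those of low loci. Regions were peaks merged by 1 bp of overlap, with 200 bp added and a minimum of 200 bp. Both were tested with limma 3.58.1 in R 4.3.3 (eBayes with trend, Benjamini-Hochberg at 0.05). The locus fit alone was run on simulated data, and the share of known changes that it recovered is not reported here. The weight of the common trend in the locus fit was 6.82 degrees of freedom. Whole pileups were solved from fold and p, with a pseudocount of 1, to within 0.001 for 99.9 to 100.0% of the 2000 strongest peaks per library.

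The genes, lists and rules were chosen with earlier results of these data known. Named pathway genes were the 4 of smallest p in each direction. Alternatives were other list lengths, q thresholds, windows, pseudocounts, minimums, scaling, the replicate number as a block, the mean of wild-type replicates 2 and 2b as 1 library, and omission of single libraries. Exons were not used here, so positions are given relative to gene spans and starts. The genes whose pattern was most like that of Igf1r are not reported here.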

Additional observations from a re-analysis of the deposited data

How the results depend on the processing

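None of the 9 tested genes and 8 named pathway genes passed in limma under any alternative in which it was tested. The genes Igf1r and Pik3r1 kept a negative sign in all 20 alternatives, from -0.67 to -0.22 and from -0.82 to -0.023 (Pik3r1 with fixed windows), while Insr changed sign in 8, Pdpk1 in 9, Akt2 in 6, Irs2 in 5, Akt1 in 3, and Irs1 and Slc2a1 in 1 each. Insr was 0.10 with 60000 peaks, 0.64 at a q of 0.01 or less, 0.050 with flanks of 10 kb, 0.032 with a pseudocount of 2000 bp and 0.12 without scaling. Irs1 was -0.30 and Slc2a1 -0.053 over all deposited peaks. Irs2 was -0.12 with 15000 peaks, -0.17 and -0.30 within q limits of 0.05 and 0.01. Akt1 was 0.051 with fixed windows that reach 250 bp either way from the summit. Akt2 was -0.046 with 15000 peaks, -0.079 and -0.11 for peaks within q limits of 0.05 and 0.01, and -0.18 over all peaks. Pdpk1 was 0.26 with 60000 peaks, 0.35 with fixed windows, 0.32 over the gene span alone, 0.011 with flanks of 10 kb, 0.0023 with a pseudocount of 50 bp and 0.11 without scaling. With each library left out, ranges were -0.64 to 0.71 for Insr, -0.12 to 0.19 for Irs2, -0.63 to 0.30 for Akt1, -0.18 to 0.34 for Akt2 and -0.14 to 0.12 for Pdpk1. The counts of loci higher and lower at an adjusted p under 0.05 were 22 and 4 within a q limit of 0.01 and 41 and 16 with fixed windows. For regions they were 13 and 37 with 60000 peaks, 528 and 39 with fixed windows and 16 and 46 with no minimum, and 1 and 3 were lower within q limits of 0.05 and 0.01. With fixed windows the regions at the Pik3r1 start and the Kctd5 start were at -2.23e-05 and Eif4ebp1 at -1.56e-05. Fixed windows give every peak the same length, so where all libraries hold equally many peaks the difference is near 0 by construction. At such places this setting cannot show a difference in peak length, and its sign carries no weight. Why the counts of calls moved between settings was not tested. No count of calls changed with a library left out (0 to 0). Genes with a start or end held by every library numbered 5 in each of the 4 list and distance alternatives and 5 to 6 with a library left out, an alternative chosen after the data were examined.

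With the replicate number as a block and 2b counted as 2, no locus passed (0 higher and 0 lower), and Insr was 0.63, Irs2 -0.0079 and Akt1 0.26. The correlation of deviations was -0.04 between the replicates numbered 1 and 0.12 between those numbered 2. The deviations also carry differences in background between libraries, so these values cannot show whether libraries of the same number were paired. The labels do not say so either. Pik3cd fell under the minimum in 1 alternative. Depth limits every missing peak, since implied pileups of few fragments already enter the lists.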
